A study of Mus musculus with 12 samples.

Results

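The genes described here encode the protein subunits of the mitochondrial ribosome, in GFRa1-EGFP+/KIT- spermatogonia of control and surgically cryptorchid mouse testes. Members were all genes of the deposited table whose symbol begins with Mrpl or Mrps followed by a digit, a rule that uses no measured value. This gave 78 of 21859 genes, of which 49 were Mrpl genes, named for the large subunit, and 29 were Mrps genes, named for the small subunit.

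The mitochondrial ribosome, or mitoribosome, translates the few mRNAs of the mitochondrial genome, all of which encode subunits of the respiratory chain and of ATP synthase. Its ribosomal RNAs are transcribed inside the organelle, whereas its protein subunits are encoded by nuclear genes, translated in the cytosol and imported. Some subunits descend from those of the bacterial ribosome and others are found only in mitochondria. Spermatogonial stem cells are commonly described as relying less on respiration than the germ cells that follow them.

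The study asked how spermatogonia change when the testis is held at body temperature. The left testis was moved to the abdominal wall by surgery (genotype labelled Cryptorchid, Cryp here) and the right testis stayed in the scrotum as control (genotype labelled WT, Ctrl here). Cells were sorted 10 days later from adult male mice carrying GFRa1-EGFP, a reporter of the GDNF receptor gene Gfra1. Per the study's methods the controls thus also came from operated mice, and both groups carried the reporter. KIT marks the differentiating cells and was selected against. cDNA was made by Smart-seq2 from RNA equal to about 200 cells, giving 5 Ctrl and 7 Cryp libraries. Testes of the 2 groups were digested at different temperatures, so the digestion and the operation cannot be told apart. Which libraries came from the same mouse is not stated. The P-values measure only the spread between these libraries.

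Between 4511730 and 24345368 reads fell on genes in the Ctrl libraries, and between 3306771 and 20027902 in the Cryp libraries. Defining markers of undifferentiated spermatogonia were detected in both groups. Gfra1 averaged 7.88 ± 0.88 log2 RPM (reads scaled to the library total, SD, n = 5) in Ctrl and 8.40 ± 0.70 (n = 7) in Cryp, and Zbtb16, a transcription factor of undifferentiated spermatogonia, averaged 8.33 ± 0.69 and 8.54 ± 0.57. Of 12 such markers 1 was higher and 1 lower in Cryp at an unadjusted P under 0.05, with a median log2 fold change of -0.10. Kit, a receptor of differentiating spermatogonia, averaged 4.49 ± 0.63 and 4.94 ± 0.57. Sycp3, a protein of the meiotic chromosome axis in spermatocytes, was at 4.77 to 7.32 in Ctrl and at 5.49 to 7.57 in Cryp. Sox9, which marks Sertoli cells, was low, at -0.68 to 1.73 log2 RPM in Ctrl and -0.07 to 2.17 in Cryp. The summed RPM of 6 spermatid markers ran from 475 to 2618 in Ctrl and from 13.6 to 1771 in Cryp, so it moved with the condition, and its part in the results below was not tested. In the values themselves, replicates 1 to 3 of both groups stood apart from replicates 4 and above. Of the reads that the RPM scale implies, 74.5 to 94.0% lay on genes in the first set and 94.8 to 99.9% in the second. The sets also differed in depth, with 6800360 to 24345368 reads on genes in the first and 3306771 to 5481947 in the second. Results are also given within each set. No label names these sets.

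Promoters are shown first, since nuclear genes of mitochondrial proteins are known to share binding sites for a small number of factors. Promoters of 300 bases, most of each window upstream of the annotated start site, were taken from RefSeq on GRCm38.p6 and matched by symbol for 69 of the 78 members. The promoters of 4 of the 5 members with an unadjusted P-value under 0.05 and of the head-to-head pair Mrpl46 and Mrps11 are printed 5′ to 3′ on the strand of the gene, with the matches to 3 motifs in capitals. Mrps6 lies at chr16:92058086-92058385 on the plus strand, Mrpl45 at chr11:97315466-97315765 on the plus strand, Mrpl37 at chr4:107066817-107067116 on the minus strand, Mrps18b at chr17:35916391-35916690 on the minus strand, Mrps11 at chr7:78782881-78783180 on the plus strand and Mrpl46 at chr7:78783040-78783339 on the minus strand.
Mrps6: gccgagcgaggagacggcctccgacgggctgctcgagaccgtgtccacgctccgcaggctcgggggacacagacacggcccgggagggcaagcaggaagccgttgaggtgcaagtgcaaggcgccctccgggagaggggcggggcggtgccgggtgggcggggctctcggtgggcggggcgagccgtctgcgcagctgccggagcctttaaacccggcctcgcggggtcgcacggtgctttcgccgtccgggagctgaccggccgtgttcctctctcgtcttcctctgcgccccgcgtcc
Mrpl45: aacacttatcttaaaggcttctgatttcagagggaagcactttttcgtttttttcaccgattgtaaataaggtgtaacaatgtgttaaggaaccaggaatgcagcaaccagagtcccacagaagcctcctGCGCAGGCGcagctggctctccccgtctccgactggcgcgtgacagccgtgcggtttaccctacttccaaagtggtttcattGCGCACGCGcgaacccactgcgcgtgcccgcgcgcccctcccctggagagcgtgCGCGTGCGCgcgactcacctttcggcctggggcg
Mrpl37: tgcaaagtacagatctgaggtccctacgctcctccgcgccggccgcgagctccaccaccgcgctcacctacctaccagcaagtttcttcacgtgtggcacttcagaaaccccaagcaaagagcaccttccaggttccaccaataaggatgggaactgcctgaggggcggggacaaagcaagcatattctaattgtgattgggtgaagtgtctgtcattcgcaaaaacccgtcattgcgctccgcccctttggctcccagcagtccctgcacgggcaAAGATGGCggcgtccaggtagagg
Mrps18b: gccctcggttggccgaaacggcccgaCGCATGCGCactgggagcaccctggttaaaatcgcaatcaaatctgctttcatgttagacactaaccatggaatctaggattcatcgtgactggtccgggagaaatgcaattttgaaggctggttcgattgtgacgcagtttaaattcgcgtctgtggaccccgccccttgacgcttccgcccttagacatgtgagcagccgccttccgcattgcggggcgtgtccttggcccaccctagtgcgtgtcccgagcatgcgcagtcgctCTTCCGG
Mrps11: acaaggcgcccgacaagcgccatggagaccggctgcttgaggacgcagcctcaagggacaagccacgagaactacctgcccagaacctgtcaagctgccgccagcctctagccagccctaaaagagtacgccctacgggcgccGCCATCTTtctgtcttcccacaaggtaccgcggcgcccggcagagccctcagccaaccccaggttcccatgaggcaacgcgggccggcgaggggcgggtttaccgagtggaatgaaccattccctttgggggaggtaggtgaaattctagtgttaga
Mrpl46: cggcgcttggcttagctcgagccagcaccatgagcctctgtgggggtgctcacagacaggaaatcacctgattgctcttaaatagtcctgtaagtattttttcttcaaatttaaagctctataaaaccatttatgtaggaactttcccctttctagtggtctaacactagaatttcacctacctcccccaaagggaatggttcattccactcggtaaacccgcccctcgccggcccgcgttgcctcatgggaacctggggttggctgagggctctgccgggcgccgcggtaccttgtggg

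The motifs searched on both strands were CCGGAAG, the core of sites bound by ETS factors such as GABP, CGCNTGCGC, the core of the site of nuclear respiratory factor NRF1, and AANATGGC, the site of YY1. The promoter of Mrpl45 held 3 NRF1 matches, which began 120 and 38 bases before the start site and 16 bases after it. Mrpl37 had a YY1 match beginning 26 bases after the start, Mrps18b an ETS match beginning 43 bases after it and an NRF1 match beginning 224 bases before it, and Mrps11 a YY1 match beginning 107 bases before it. Mrps6 and Mrpl46 had none of these letters in the window. All distances count from the RefSeq start, which can differ from the GENCODE start used for gene positions below. The Mrps18b window lies wholly upstream of its GENCODE gene, chr17:35910379-35916389. The Mrpl46 window lies inside its GENCODE gene, chr7:78775236-78783531. The windows of Mrpl46 and Mrps11, on opposite strands, shared 141 bases.

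Of the 69 members with promoters, 26 held the ETS motif (37.7%). The share was 8.86% of all 32851 promoters, and 16.5% of 13114 genes that were expressed enough to be tested. Members and tested genes were counted when any of their promoters held the motif. The share of all promoters counts each promoter by itself, so only the share of tested genes is a like measure. The YY1 motif was in 21 members (30.4%), against 6.05% of all promoters and 8.57% of tested genes. The NRF1 motif was in 16 (23.2%), against 6.25% and 12.6%. With 1 more G in front, the form searched first, it was in 13 (18.8%), against 4.6% and 9.43%. At least 1 of the 3 was in 48 members (69.6%), against 31.9% of tested genes. The E-box CACGTG was in 5 members (7.25%), against 7.15% of all promoters and 10.8% of tested genes. TATAAA was in 5 (7.25%), against 13.6% and 9.86%. Motifs were searched one by one, so that 1 promoter can hold several. The median response was close to 0 with and without each motif: the median log2 fold change was 0.0026 with the ETS motif and -0.01 without it, and the medians for NRF1 and YY1 were between -0.011 and -0.0051.

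All 78 genes were expressed in every library. The lowest value was 22 reads, the median over genes and libraries was 359.5 reads, and 24 genes had fewer than 100 reads in at least 1 library. To compare genes, RPM was divided by the length of the principal GENCODE transcript. The mean level ran over a 52.7-fold range, with a median of 33.7 RPM per kb and quartiles of 19.9 and 59.7. Mrpl42, a subunit found only in mitochondria, was highest at 215 ± 87.3 RPM per kb (SD, n = 5) in Ctrl and 299 ± 148 (n = 7) in Cryp. Mrps6 and Mrpl33, both with bacterial homologues, followed at 160 ± 51.7 and 159 ± 49.3 in Ctrl and at 244 ± 53.5 and 185 ± 52.8 in Cryp. The SDs of these 3 genes between libraries overlapped. All 3 were measured in the same libraries, and their order within libraries was not tested.

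The lowest levels belonged to Mrpl19, at 6.65 ± 2.36 RPM per kb in Ctrl and 3.84 ± 0.81 in Cryp, to Mrpl32, at 4.01 ± 1.02 in Ctrl and a mean of 6.40 in Cryp, and to Mrpl17, at 9.55 ± 4.91 and 6.65 ± 1.99. These 3 also had long annotated transcripts, of 5000, 3013 and 7300 bp against a median of 1302 bp over the members, and which transcript was present was not measured. The order of the 78 levels was nearly the same in both groups, with a Spearman correlation of 0.957 across genes, which share libraries and are not independent. Members were grouped by a list of subunit classes, and no sequences were compared to set them. Small-subunit proteins grouped as found only in mitochondria had a median of 19.7 RPM per kb over 9 genes. Those grouped as having bacterial homologues had 39.9 over 15. In the large subunit these medians were 30.1 over 22 genes and 37.4 over 28, and the ranges of all 4 classes overlapped.

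**Figure D1:**
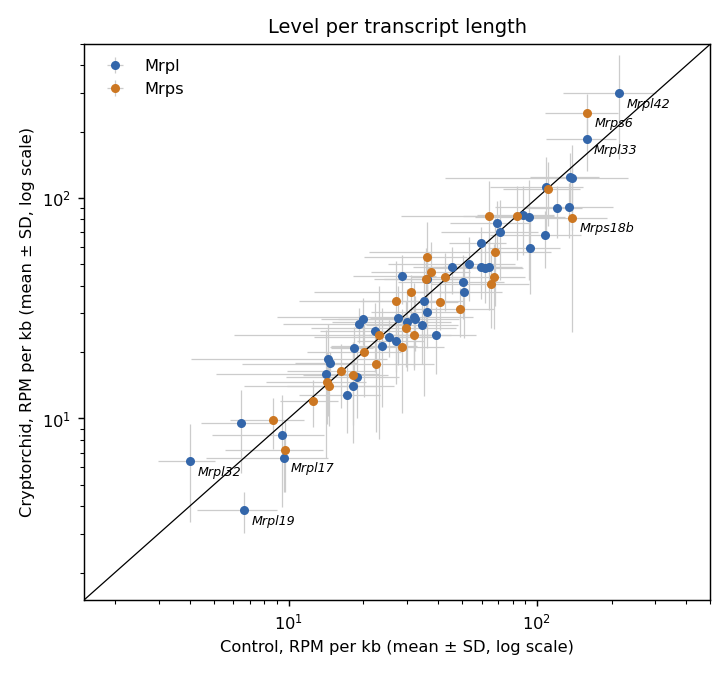
Mean RPM per kb of principal transcript in Ctrl (x axis, n = 5) and Cryp (y axis, n = 7), on log scales with SD bars, for 49 Mrpl and 29 Mrps genes. Points lie along the line of equal levels from Mrpl19 and Mrpl32 at the lower end to Mrpl42 at the upper end.

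The question of the comparison was whether the mRNAs of the mitoribosome changed in cryptorchid spermatogonia. Summed over the 78 genes, the level in Ctrl replicates 1 to 5 was 5118, 5409, 2304, 6449 and 5420 RPM, and in Cryp replicates 1 to 7 it was 4447, 5428, 2577, 4818, 4592, 5201 and 5659 RPM. The means were 4940 ± 1558 RPM (SD, n = 5) and 4675 ± 1024 (n = 7), and the groups overlapped. In such bulk libraries, fewer cells of a type and less RNA per cell cannot be told apart. Replicate 3 stood low in both groups, 2.35-fold below the median of its group in Ctrl and 1.94-fold below it in Cryp. Without the replicate 3 libraries the sums ran from 5118 to 6449 in Ctrl and from 4447 to 5659 in Cryp.

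**Figure D2:**
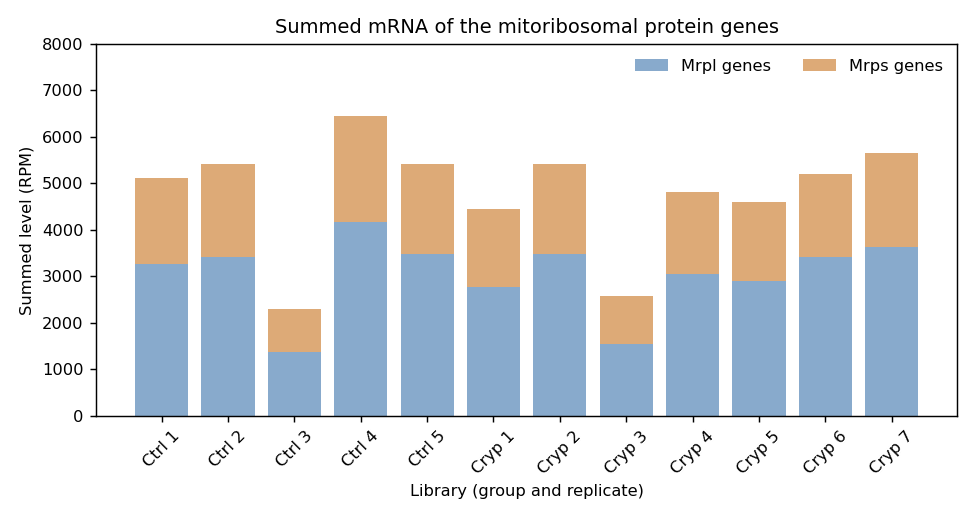
Summed level in RPM (y axis, from 0) of the Mrpl and Mrps genes in each of the 12 libraries (x axis), stacked. Replicate 3 of Ctrl (2304 RPM) and of Cryp (2577 RPM) are the lowest bars, and the other 10 libraries lie between 4447 and 6449 RPM.

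The dip in replicate 3 ran through nearly the whole set. Ctrl replicate 3 was the lowest Ctrl library for 72 of 78 genes, Cryp replicate 3 the lowest Cryp library for 62, and both held for 62 genes. Cytosolic ribosomal protein genes were low in the same libraries, with sums of 13927 RPM in Ctrl replicate 3 and 13919 in Cryp replicate 3 against 28827 to 67572 in the other 10. Over all genes with transcripts under 1 kb, the median deviations of these libraries from each gene's mean were -0.98 and -1.06 on the log2 scale. For transcripts over 4 kb the medians were 0.02 and 0.10. Mitoribosomal transcripts were short, since 67.9% were under 2 kb against 30.3% of all genes. The 9 members over 4 kb were low in both libraries too, at medians of -1.06 and -1.12 against each gene's mean. The part of library quality in this was not tested.

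Between the groups, few members passed the test. In limma on log2 RPM, 2 members were higher and 3 lower in Cryp at an unadjusted P-value under 0.05, which is 6.41% of 78 against 9.48% of the 16932 genes tested (5.67% higher and 3.82% lower). The members were thus called no more often than other genes. At the threshold of at least 2-fold with P under 0.05, 0 members passed, against 3.56% of all genes higher and 2.36% lower. After Benjamini-Hochberg adjustment over all genes 0 members passed in limma, with a smallest adjusted P of 0.469, and 2 genes of the whole table did (0.0118%). Counts recovered from the RPM steps and tested with voom also gave 0 members after adjustment, with 2 higher and 3 lower at an unadjusted P under 0.05, against 6.77% and 4.79% of all genes. The groups of 0 members were free of overlap, against 0.555% of all genes higher and 0.283% lower.

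Of the 5 genes called by limma, 4 also had an exact permutation P-value under 0.05 over the 792 arrangements of the group labels (not adjusted for the number of genes), and Mrps18b did not. The fold changes were small. The median log2 fold change, Cryp minus Ctrl, was -0.02 over the members and 0.10 over all tested genes, with 36 members above 0 and 42 below. It ranged from -0.91 for Mrps18b to 0.69 for Mrpl45. Mrpl genes had 1 higher and 2 lower with a median of -0.05, and Mrps genes 1 higher and 1 lower with a median of 0.03. The median standard error was 0.38. Taken at 10 degrees of freedom, the median half-width of a 95% interval was 0.84. The limma test has more degrees of freedom than this, so its own interval is narrower. Differences well below 0.84 could not be resolved for a typical member.

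**Figure D3:**
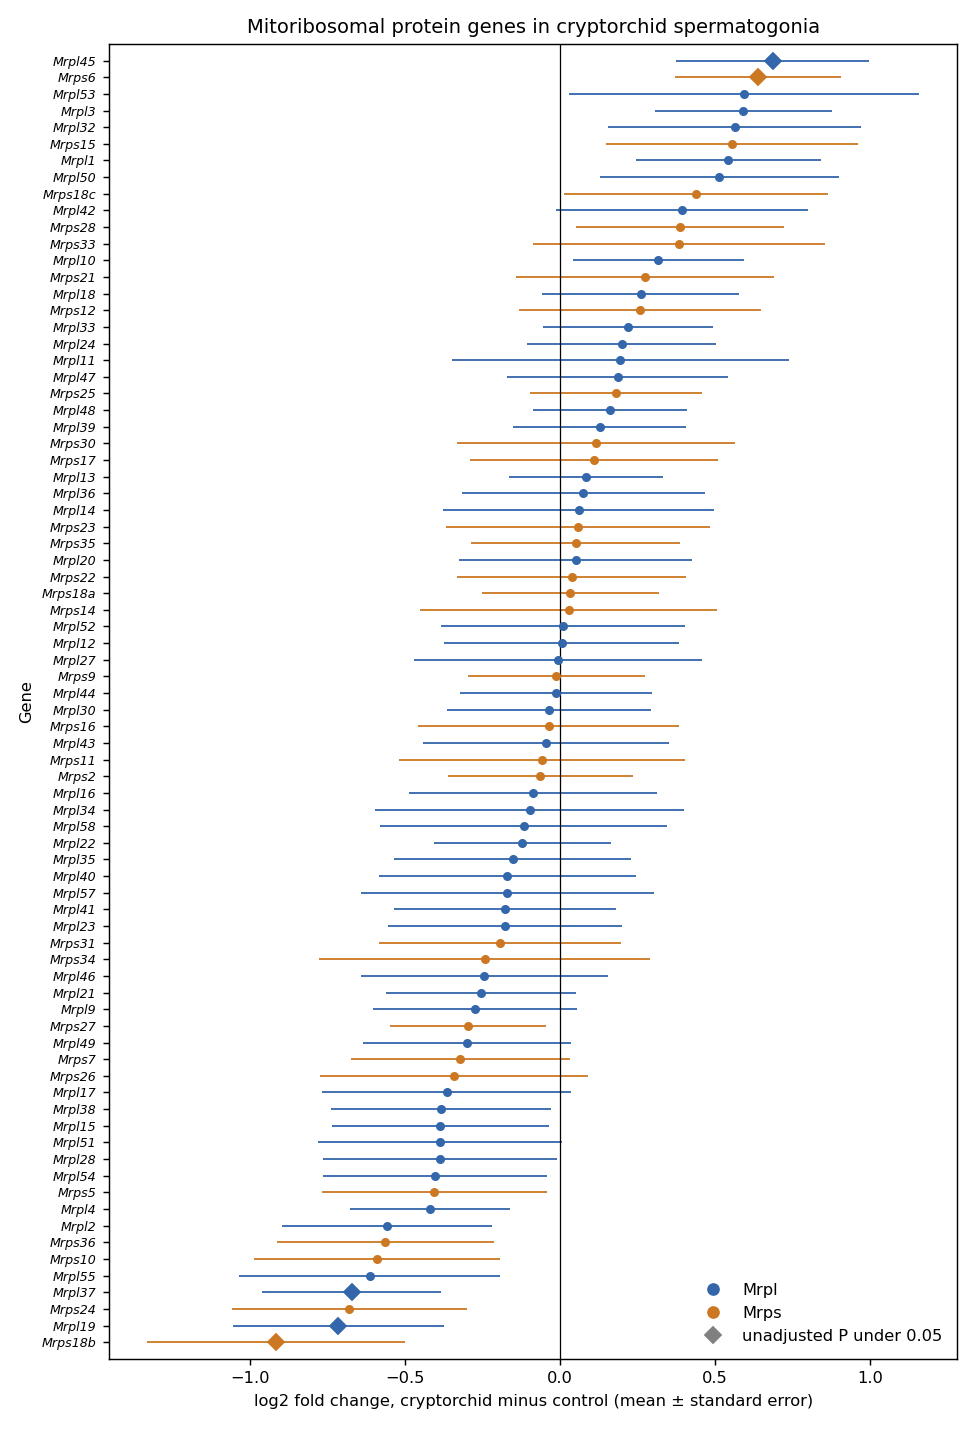
The log2 fold change (x axis, Cryp minus Ctrl, with standard error) of each of the 78 genes (y axis), in order of size, with Mrpl and Mrps genes in separate colours and diamonds for an unadjusted P under 0.05. The values spread on both sides of 0, from -0.91 for Mrps18b to 0.69 for Mrpl45, and the diamonds mark 2 higher and 3 lower genes.

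Mrps6 (chr16:92058270-92112227, GRCm38, plus strand), the homologue of a bacterial small-subunit protein, was at 6.31, 6.74, 7.59, 7.24 and 7.19 log2 RPM in Ctrl replicates 1 to 5, and at 7.08, 7.24, 7.75, 7.79, 7.95, 7.80 and 7.96 in Cryp replicates 1 to 7. In 5 Cryp libraries the value lay above all Ctrl libraries. This gave a log2 fold change of 0.64 ± 0.27 (SE; exact permutation P = 0.020, limma adjusted P = 0.47), and it was 0.47 in replicates 1 to 3 and 0.67 in replicates 4 and above. Its principal transcript shares 159 bp of exon with Slc5a3 on the same strand, the gene of a myo-inositol transporter. Slc5a3 averaged 5.72 ± 0.83 in Ctrl and 6.66 ± 0.51 in Cryp, a log2 fold change of 0.94 ± 0.35 (exact permutation P = 0.033, limma adjusted P = 0.41). It also shares 305 bp with Gm49711, an annotated gene on the same strand with a log2 fold change of 0.63. Reads of the shared exons cannot be assigned to 1 of these genes from the deposited values.

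Mrpl45 (chr11:97315716-97329920, plus strand), which lies near the tunnel exit of the large subunit and helps to hold the ribosome at the inner membrane, was at 6.58, 6.20, 4.84, 6.03 and 6.42 in Ctrl and at 6.55, 6.96, 5.86, 6.90, 6.61, 7.13 and 6.89 in Cryp. Again 5 Cryp libraries lay above every Ctrl library, and the lowest of each group was replicate 3. On average Cryp was higher by a log2 fold change of 0.69 ± 0.31 (exact permutation P = 0.045, limma adjusted P = 0.50), with 0.58 in the first set of libraries and 0.66 in the second. Without Ctrl replicate 3 it was 0.39 and not called. No exon of another protein-coding gene overlaps its principal transcript, and other transcripts and the authors' gene models were not examined.

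Mrpl37 (chr4:107055874-107066868, minus strand), a large-subunit protein found only in mitochondria, was at 7.62, 7.45, 6.58, 7.08 and 6.64 in Ctrl and at 7.20, 7.03, 6.14, 5.95, 6.23, 6.13 and 6.14 in Cryp. In 5 Cryp libraries the value lay below all Ctrl libraries. The log2 fold change was -0.67 ± 0.29 (exact permutation P = 0.047, limma adjusted P = 0.48), with -0.43 and -0.75 in the 2 sets.

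Mrps18b (chr17:35910379-35916389, minus strand) belongs to the 3 mammalian relatives of bacterial S18, which occupy different places in the mitoribosome. It was at 7.40, 7.71, 5.91, 7.43 and 7.11 in Ctrl and at 6.77, 7.74, 5.39, 4.96, 6.06, 6.33 and 6.13 in Cryp. The highest Cryp library was slightly above the highest Ctrl library, and only 2 Cryp libraries lay below all of Ctrl. The log2 fold change was -0.91 ± 0.42 (exact permutation P = 0.095, limma adjusted P = 0.50), with -0.38 in the first set and -1.40 in the second. Its relatives did not pass: Mrps18a, whose protein sits in the large subunit despite its name, averaged 5.19 ± 0.40 and 5.22 ± 0.40 (log2 fold change 0.03 ± 0.29), and Mrps18c averaged 5.13 ± 0.96 and 5.57 ± 0.73 (0.44 ± 0.43). The differences between the relatives' fold changes were not tested.

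Mrpl19 (chr6:81957851-81965958, minus strand), a homologue of a bacterial large-subunit protein, was at 5.26, 5.46, 3.77, 4.99 and 5.26 in Ctrl and at 4.66, 4.45, 3.95, 4.04, 3.81, 4.40 and 4.33 in Cryp. In 4 Ctrl libraries the value lay above all of Cryp, and Ctrl replicate 3 lay below all of Cryp. Over all libraries the log2 fold change was -0.71 ± 0.34 (exact permutation P = 0.040, limma adjusted P = 0.53), and it was -1.01 without Ctrl replicate 3 (limma adjusted P = 0.18). Its principal transcript shares 1962 bp of exon with Gcfc2 on the opposite strand, whose log2 fold change was 1.88 ± 0.74 (exact permutation P = 0.024, limma adjusted P = 0.43), and the counting strand is not stated.

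**Figure D4:**
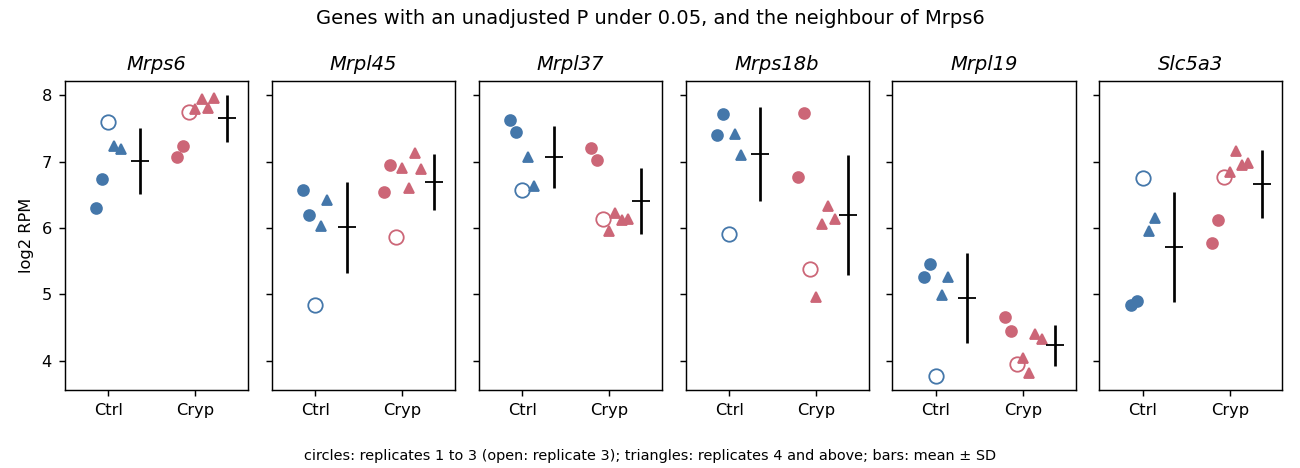
log2 RPM (y axis) of the 5 members with an unadjusted P under 0.05 and of Slc5a3 in each Ctrl and Cryp library (x axis), with the mean and SD beside each group. Circles are replicates 1 to 3 (open for replicate 3) and triangles replicates 4 and above. Mrps6, Mrpl45 and Slc5a3 have 5 Cryp libraries above every Ctrl library, and the groups overlap in each of the 6 genes.

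Apart from Mrps18b, the members named for a known role did not pass the test in the fit of all 12 libraries. Mrpl12, which also binds the mitochondrial RNA polymerase, averaged 6.40 ± 0.81 log2 RPM in Ctrl and 6.41 ± 0.68 in Cryp (log2 fold change 0.01 ± 0.38). Mrps12, at the decoding centre, averaged 4.86 ± 0.73 and 5.12 ± 0.70 (0.26 ± 0.39). Mrpl58, a peptidyl-tRNA hydrolase that rescues stalled ribosomes, averaged 5.33 ± 1.22 and 5.22 ± 0.65 (-0.12 ± 0.46). For these 3 genes the difference was smaller than its standard error.

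Of genes mutated in human mitochondrial disease, Mrps16 had a log2 fold change of -0.04 ± 0.42, Mrps22 of 0.04 ± 0.37 and Mrpl44 of -0.01 ± 0.31. Mrpl3 was the nearest to the threshold, at 7.13, 6.17, 5.38, 5.64 and 6.29 in Ctrl and 7.12, 6.66, 6.32, 6.95, 6.54, 6.73 and 6.68 in Cryp. Its highest library was a Ctrl one while the other 4 Ctrl libraries lay below all of Cryp (0.59 ± 0.29, exact permutation P = 0.061). Mrps5 and Mrps7, homologues of bacterial small-subunit proteins, had values of -0.40 ± 0.36 and -0.32 ± 0.35, and Mrpl13, a large-subunit protein, of 0.09 ± 0.25. The low-level Mrpl32 had 0.56 ± 0.41 and Mrpl17 -0.37 ± 0.40, and the abundant Mrpl42 and Mrpl33 had 0.40 ± 0.41 and 0.22 ± 0.28, and these 4 did not pass either.

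The largest spread between libraries within groups was that of Mrpl11, a subunit of the L11 stalk base, with a residual SD of 1.12 on the log2 scale. Mrps34 followed with 0.994 and Mrpl53 with 0.988, and the median was 0.685 over the members and 0.793 over all genes. Mrpl11 ran from 3.22 to 6.38 in Ctrl and from 3.36 to 6.36 in Cryp, with the minimum of each group in replicate 3 (log2 fold change 0.20 ± 0.54). Mrpl53 ran from 1.11 to 4.23 and from 2.32 to 4.40, and Mrps34 from 2.43 to 5.47 and from 2.29 to 4.84.

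Levels of the members varied together across libraries, and much less so without replicate 3. Across the 12 libraries the median correlation over 3003 pairs of members was 0.64, with 65.1% of pairs above 0.5, and without replicate 3 of both groups it was 0.18 over 10 libraries, with 21.2% above 0.5. The members share libraries, depth and scaling, so these values are descriptions. Of the 78 genes, 46 had a correlation above 0.8 with the mean of the others, and 3 did so without replicate 3. Mrps2 (-0.32) and Mrps6 (-0.26) had the lowest correlations with the other members, and neither had its lowest value in replicate 3.

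The 2 sets of libraries gave different counts. In replicates 1 to 3 (3 Ctrl, 3 Cryp), 0 members were called at an unadjusted P under 0.05, against 1.7% of all genes higher and 2.04% lower, and the median log2 fold change was 0.01. In replicates 4 and above (2 Ctrl, 4 Cryp), 4 members were higher and 19 lower (24.4% lower), against 8.83% of all genes higher and 8.5% lower. The median was -0.28, and 4 were lower by at least 2-fold, against 4.16% of all genes. In the same libraries 3 of 6 spermatocyte markers were higher, with a median log2 fold change of 0.80, against 0 of 6 and a median of 0.40 over all libraries. Their summed RPM ran from 214 to 343 in the 5 Ctrl and from 271 to 502 in the 7 Cryp libraries, and their part in the result was not tested. No member passed the adjusted threshold in either set by limma. With condition by set as an interaction, 0 of 78 members had an unadjusted P under 0.05, against 1.59% of all genes, so a difference between the sets was not detected for single members. The sign was the same in both sets for 47 of 78 genes.

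**Figure D5:**
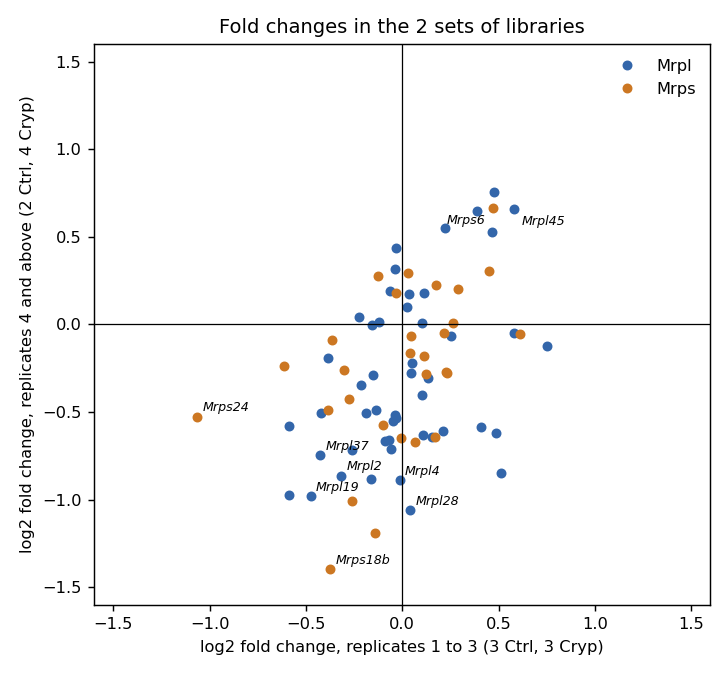
The log2 fold change, Cryp minus Ctrl, of each member in replicates 1 to 3 (x axis) and in replicates 4 and above (y axis), for Mrpl and Mrps genes. Along the y axis most points lie below 0 (median -0.28), while along the x axis they centre near 0 (median 0.01).

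A like shift appeared when the low libraries were left out. Without replicate 3 of both groups, 16 members were lower (20.5%) and 3 higher (3.85%), against 6.44% and 7.02% of all genes, and the median log2 fold change was -0.18 against 0.07 over all genes. This alternative was chosen after the data were seen, and 0 members passed the adjusted threshold. Without Ctrl replicate 3 alone the count was 17 lower and 1 higher, against 6.69% and 6.26%, and without Cryp replicate 3 alone it was 0 lower and 5 higher, against 3.83% and 7.49%. Over the 27 alternatives to the fit of all libraries, the median of the members was positive in 7 and negative in 20. The 3 members lower in the fit of all libraries were among the 16, and 11 of the 16 were also among the 19 of replicates 4 and above. All libraries of replicates 4 and above are also in the fit without replicate 3, so these overlaps are not independent.

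Mrpl2 and Mrpl28, named here after their values were seen, show this shift. Mrpl2, a core protein at the peptidyl transferase centre, was at 7.10, 7.17, 5.12, 6.88 and 6.90 in Ctrl and at 6.13, 6.77, 5.54, 5.88, 6.14, 5.78 and 6.31 in Cryp. In 4 Ctrl libraries the level was above all Cryp libraries and Ctrl replicate 3 was below all of them, which gave a log2 fold change of -0.56 ± 0.34 (exact permutation P = 0.16). It was -0.85 (limma adjusted P = 0.15) without replicate 3 of both groups. Mrpl28, another large-subunit protein, was at 6.92, 7.30, 5.18, 7.83 and 7.47 in Ctrl and between 5.75 and 7.18 in Cryp (median 6.59), with a log2 fold change of 0.04 in replicates 1 to 3 and -1.06 in replicates 4 and above.

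Calls by class of subunit are set beside the 5.67% of all genes tested that were higher and the 3.82% that were lower. The classes were not tested against these shares or against each other. Among the 28 large-subunit genes grouped as having bacterial homologues 0 were higher and 1 lower, and the median log2 fold change was -0.02. Among the 22 large-subunit genes grouped as found only in mitochondria 1 was higher and 1 lower, with a median of -0.08. The 15 small-subunit genes grouped as having bacterial homologues had 1 higher and 0 lower (median -0.01). The 9 grouped as found only in mitochondria had 0 and 0 (median 0.04). Mrps36, whose protein is known as a part of the oxoglutarate dehydrogenase complex, averaged 4.98 ± 0.72 and 4.42 ± 0.39 (log2 fold change -0.56 ± 0.35, exact permutation P = 0.11). Without replicate 3, the medians of the 4 classes were -0.18, -0.29, -0.08 and -0.15 in the same order.

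Calls in the rest of the mitochondrial translation machinery are set beside the 9.48% of all 16932 genes tested that were called. Whether the shares of these short lists differ from it was not tested. Of mitoribosomal subunits with other names, 5 were in the table, and 0 passed (median log2 fold change -0.05). Dap3, a small-subunit GTP-binding protein, averaged 7.18 ± 0.52 and 7.03 ± 0.40 log2 RPM, and Chchd1 4.37 ± 0.88 and 4.60 ± 0.65. Of 11 translation factors 0 passed (median 0.12). Nearest to the threshold were the elongation factor Guf1 (log2 fold change 0.66 ± 0.37, exact permutation P = 0.13) and the release factor Mtrf1 (1.09 ± 0.77, exact permutation P = 0.25).

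Of 22 mitochondrial aminoacyl-tRNA synthetase and amidotransferase genes, 0 were higher and 1 lower (4.55%, against 9.48% of all genes). Sars2, the seryl-tRNA synthetase, averaged 6.37 ± 0.47 and 5.37 ± 1.09 (exact permutation P = 0.095), with log2 fold changes of -0.19 in the first set of libraries and -1.43 in the second. Gatb followed at 0.62 ± 0.33 (exact permutation P = 0.088). Of 26 assembly factors 1 was higher and 1 lower (7.69%, against 9.48% of all genes). The rRNA methyltransferase gene Mettl15 averaged 2.78 ± 1.94 and 4.41 ± 0.92 (1.63 ± 0.70, exact permutation P = 0.048). The pseudouridine synthase family gene Rpusd3 averaged 3.17 ± 0.89 and 0.49 ± 2.58 (-2.68 ± 1.05, exact permutation P = 0.057). Its values in Cryp replicates 6 and 7 (-2.34 and -2.38) stand for 0 reads. The Cryp mean, SD and fold change of Rpusd3 thus depend on the floor value given to 0 reads. Of 15 genes of mitochondrial transcription and RNA handling 0 passed (median 0.12), with Pnpt1 (0.77 ± 0.45, exact permutation P = 0.18) and Gabpa, a subunit of the ETS factor GABP (0.46 ± 0.27, exact permutation P = 0.097), nearest to the threshold.

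Cytosolic ribosomal protein genes, excluding ribosomal protein kinases and binding proteins, gave 2 higher and 0 lower of 82 (2.44%, against 9.48% of all genes). Their median log2 fold change was 0.04. In replicates 4 and above 29 of the 82 were lower and 2 higher, against 8.5% and 8.83% of all genes. Without replicate 3 of both groups 8 were lower and 2 higher, where 6.44% and 7.02% of all genes and 16 and 3 of the 78 mitoribosomal genes were. The difference between the lists was not tested.

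Neighbours bear on some of these values. The principal transcripts of 19 members share exon sequence with another protein-coding gene. In 2 cases (Mrps6 and Mrpl53) it lies on the same strand and in the others on the opposite one. All 695 bp of the Mrpl53 transcript are shared with Gm42688. The level and spread given for Mrpl53 thus cannot be assigned to 1 of these genes from the deposited values. Mrps25 shares 4590 bp with Nr2c2, which had a log2 fold change of 0.68 while that of Mrps25 was 0.18, and Mrpl9 shares 157 bp with Oaz3, a gene of spermatids, with -2.32 for Oaz3 and -0.27 for Mrpl9. The head-to-head genes Mrps11 and Mrpl46 share 173 bp of exon and had log2 fold changes of -0.06 and -0.24. Annotated pseudogene copies exist for Mrpl23, Mrpl48 and Mrps36 (5 in all), and how reads matching both copies were counted is not stated.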

How the data were processed

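RNA was measured in 12 Smart-seq2 libraries, 5 Ctrl and 7 Cryp, grouped by sample labels. The authors trimmed reads with Trim Galore 0.6.6, mapped them to mm10 with HISAT2 2.1.0, and used SeqMonk to count reads on protein-coding genes. The authors deposited log2 RPM. The strand of counting is not stated, and PCR copies carry no molecular identifiers, so read numbers cover counting error only. The table has 0 columns of no sample.

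The deposited log2 RPM values were compared in a two-sided limma-trend fit (limma 3.58.1, R 4.3.3) over 16932 genes with log2 mean RPM above -1, and P-values were adjusted over all of them. All 78 members passed this filter. Reads were recovered from the RPM steps, and 100% of the low values were whole within 0.02 reads. The lowest value of a library was taken as 0.9 reads. Positions and lengths are those of GENCODE vM21 on GRCm38, and promoters those of RefSeq. The NRF1 motif was shortened by 1 base after a first search, and both forms are given. For single genes, an exact two-sided permutation test of the difference in means was run over all 792 arrangements of the labels, and added after the data were seen. The limma fit was checked on simulated data.

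The members, gene lists and tests were chosen with earlier results of these data known. Named genes are those with an unadjusted P under 0.05, the 3 highest, the 3 lowest and the 3 most variable, those with groups that do not overlap, and genes of known role, with the 2 smallest P-values of each related list. Alternatives were median centring, quantile normalization, pseudocounts of 1 and 0.1, no filter and a filter at 2, library weights, voom, a replicate block, a term for the 2 sets, each set alone and each library left out. Leaving out both replicate 3 libraries, removing the length trend, centring on the members and the interaction were added after the data were seen.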

Additional observations from a re-analysis of the deposited data

Results flagged for a closer look

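Some libraries lay far from the others of their group, with a gap to the nearest library above Dixon's critical value. Chance gives this in about 1 of 20 groups tested. All of them were replicate 3. The summed level of the members in Cryp replicate 3 was 2577 RPM, where the next library was at 4447. The mean log2 RPM over the members was 4.43 in Ctrl replicate 3, with the next at 5.71, and 4.63 in Cryp replicate 3, with the next at 5.50. Of the named members, Ctrl replicate 3 stood apart for Mrpl19 (3.77, next 4.99), Mrpl58 (3.19, next 5.53), Mrps22 (5.04, next 6.69) and Mrps7 (4.38, next 5.95), and Cryp replicate 3 for Mrpl17 (4.37, next 5.49), all in log2 RPM.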

How the results depend on the processing

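The members higher and lower at an unadjusted P under 0.05, 2 and 3 over all libraries, moved most with the libraries used. Leaving out 1 library at a time gave 0 to 5 higher, 0 to 17 lower and 0 to 4 lower by at least 2-fold. The medians were -0.34 to 0.15. In the same fits 4.21 to 7.49% of all genes were higher and 2.52 to 6.69% lower. Among the members, the lower count was 17 without Ctrl replicate 3. It was 1 or 0 without Ctrl replicate 1, 2, 4 or 5 or Cryp replicate 3, 4, 5, 6 or 7. The higher count was 5 without Cryp replicate 3 and 1 or 0 without Ctrl replicate 2, 3 or 4 or Cryp replicate 2, 4, 5, 6 or 7. Replicates 1 to 3 alone gave 0 and 0, and replicates 4 and above gave 4 and 19, with 4 lower by 2-fold. Library weights gave 4 and 15, with 1 lower by 2-fold and 1 changed at an adjusted P, where 11.1% of all genes were higher and 8.92% lower and 2.81% passed the adjusted threshold. Leaving out both replicate 3 libraries gave 16 lower, with 1 by 2-fold, and removing the length trend gave 5 lower (5.36% of all genes).

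The replicate number as a block gave 4 higher and 13 lower, with 2 changed at an adjusted P, against 11.4%, 10.9% and 5.82% of all genes. The numbers were not taken to pair libraries, because labels name no shared mouse, and whether they mark mice was not settled. Deviations of same-numbered libraries correlated at 0.35, 0.36, 0.41, 0.25 and 0.05 for numbers 1 to 5. As a hint from the data, numbers 1 to 4 correlated best with their own number, and number 5 with 7 (0.27).

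No single member kept its call in every fit. Without 1 library at a time, the call was lost in 4 of 12 fits for Mrps6, 7 for Mrpl45, 8 for Mrpl37, 8 for Mrps18b and 9 for Mrpl19, and the sign of each of these 5 held in all 27 alternatives. The cause of these changes was not tested. The lowest value of a member was 22 reads, and 24 members had under 100 reads in at least 1 library.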
